A study of Mus musculus with 5 samples.

Results

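The genes described here are 10 mouse genes that mark neural stem and progenitor cells or act in them: Sox1, Sox2, Sox3, Sox21, Nes, Msi1, Prom1, Fabp7, Lin28b and Hmga2. They were taken by symbol, and each was matched to 1 RefSeq transcript, giving 10 of the 20178 transcripts in the tables. RNA was sequenced from cultured cells of ICR mice at passage 2, with 1 library for each of 5 conditions and no replicate. The Ctx NPC library was labelled as neural progenitor cells from the cortex at embryonic day 12. The other 4 were labelled as astrocyte progenitor cells from postnatal day 5, from the cortex (Ctx astrocytes) or from the ventral midbrain (VM). Of the 3 VM libraries, 1 was not transduced, 1 has C at the end of its title and 1 has NF. With the series title, these read as control and as Nurr1 plus Foxa2 (N + F), but the "transduced with" entries give the reverse, with Nurr1 and Foxa2 viruses for the library titled C and mock virus for the library titled NF. The libraries are therefore called by their titles throughout. The study's methods give mouse Nurr1 and rat Foxa2 lentiviruses with a CMV promoter, which is not limited to a cell type. Astrocytes in those methods came from mixed glia after floating microglia were shaken off, so other glia may remain. Culture of the cortical NPCs is not described in the sources used here.

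Sox1, Sox2 and Sox3 encode the SoxB1 transcription factors, which keep neural progenitors undifferentiated, and Sox21 encodes a SoxB2 repressor that counters them. Nes encodes nestin, an intermediate filament protein of neural stem cells that reactive and cultured astrocytes also make. Msi1 encodes the RNA-binding protein musashi-1, Prom1 the membrane protein prominin-1 (CD133), which is found on progenitors and on ciliated ependymal cells, and Fabp7 the fatty acid-binding protein of radial glia. Lin28b and Hmga2 belong to a fetal program: LIN28B blocks maturation of the let-7 microRNAs, and let-7 in turn represses the Lin28b and Hmga2 mRNAs. Fetal stem cells hold this program high, and it declines as the brain matures.

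Sequences are shown first for the genes on which the comparisons turn. RefSeq promoter windows on GRCm38.p6, from 250 bases before to 50 bases after the start of the gene, were matched for 8 of the 10 genes in 9 windows. Those of Sox1 and Sox21 are printed because both genes were lower in the VM library titled C, and those of Nes and Hmga2 because both were at their highest there. Capitals mark any of 4 short motifs on either strand. The GC box is spelled GGGCGG and binds SP1-type factors. The core that Sox proteins bind was searched as ACAAAG. The CCAAT box was searched by those letters, and the TATA box as TATAAA. Sox1 lies at chr8:12395269-12395568 on the plus strand, Sox21 at chr14:118236981-118237280 on the minus strand, Nes at chr3:87970843-87971142 on the plus strand and Hmga2 at chr10:120476420-120476719 on the minus strand.
Sox1: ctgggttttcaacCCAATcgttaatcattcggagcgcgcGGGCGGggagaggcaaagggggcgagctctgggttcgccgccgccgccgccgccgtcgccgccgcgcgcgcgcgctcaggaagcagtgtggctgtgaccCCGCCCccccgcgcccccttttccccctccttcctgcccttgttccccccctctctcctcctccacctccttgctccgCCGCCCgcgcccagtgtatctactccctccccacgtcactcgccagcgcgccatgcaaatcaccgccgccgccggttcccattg
Sox21: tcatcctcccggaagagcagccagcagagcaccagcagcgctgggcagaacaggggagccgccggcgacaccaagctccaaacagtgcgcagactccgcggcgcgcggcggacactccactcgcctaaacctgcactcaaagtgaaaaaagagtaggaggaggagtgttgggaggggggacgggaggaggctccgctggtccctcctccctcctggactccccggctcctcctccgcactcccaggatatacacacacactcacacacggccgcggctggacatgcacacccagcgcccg
Nes: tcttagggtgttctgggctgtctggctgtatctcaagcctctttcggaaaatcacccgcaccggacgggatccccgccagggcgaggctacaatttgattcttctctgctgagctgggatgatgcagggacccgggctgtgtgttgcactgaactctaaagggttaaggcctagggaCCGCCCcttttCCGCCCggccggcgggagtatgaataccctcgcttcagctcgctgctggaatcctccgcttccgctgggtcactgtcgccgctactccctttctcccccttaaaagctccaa
Hmga2: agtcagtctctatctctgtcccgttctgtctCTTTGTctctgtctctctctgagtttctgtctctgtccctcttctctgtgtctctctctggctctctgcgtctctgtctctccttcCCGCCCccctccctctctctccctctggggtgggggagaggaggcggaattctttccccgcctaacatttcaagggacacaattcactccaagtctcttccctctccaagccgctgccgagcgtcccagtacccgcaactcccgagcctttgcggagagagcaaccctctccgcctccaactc
The Sox1 window held 3 GC boxes and 1 CCAAT, at 70.7% GC with 37 CpG. The Sox21 window held none of the 4 motifs, at 65.7% GC with 22 CpG. In the Nes window there were 2 GC boxes, at 58.7% GC with 18 CpG. The Hmga2 window had 1 GC box and 1 Sox core, at 57.7% GC with 12 CpG. Of 32851 mouse promoter windows, 35.7% held a GC box, 18.7% the Sox core, 37.4% CCAAT and 13.6% TATAAA, and the median window had 7 CpG and 52.7% GC. Since the Sox21 window held none, no motif was common to it and Sox1. Prom1, also lower in the library titled C, is not printed. A window of Prom1 held 1 GC box and 1 CCAAT, and another held none of the 4 motifs. The Sox1 window held the same kinds of motif, but with 3 GC boxes. These matches describe letters and not sites of binding.

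The 3′ UTRs of Hmga2 and Lin28b each held 4 matches to the let-7 seed, and those of the other 8 genes held none. The seed of mouse let-7a (bases 2 to 8, in capitals) is shared by 9 let-7 family microRNAs in RefSeq, and its match in mRNA is CTACCTC, in capitals in the sites.
mmu-let-7a-5p: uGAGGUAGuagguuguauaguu
Hmga2 site 1: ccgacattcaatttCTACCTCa
Hmga2 site 2: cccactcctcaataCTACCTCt
Hmga2 site 3: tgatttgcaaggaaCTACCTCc
Hmga2 site 4: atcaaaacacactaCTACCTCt
Lin28b site 1: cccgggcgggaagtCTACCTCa
Lin28b site 2: atacttgttagtaaCTACCTCt
Lin28b site 3: tttacagcacatggCTACCTCc
Lin28b site 4: aatgatggcaccgaCTACCTCt
All 8 sites are on the minus strand of chromosome 10 of GRCm38. The Hmga2 sites run from 120361691 to 120364245 and the Lin28b sites from 45377060 to 45381043. The longest annotated 3′ UTR was searched for each gene, 3014 bases for Hmga2 and 4445 for Lin28b. A match was present in 1879 of 20981 genes (8.96%), and in 15.6% and 23.9% of 3′ UTRs within 20% of those lengths. Other genes of the fetal program held matches too: Igf2bp1 and Trim71 4 each, Arid3a and Lin28a 2 each, and Hmga1, Igf2bp2 and Igf2bp3 1 each. Dis3l2, Igf2, Mycn, Plag1 and Plagl1 held 0. Mature microRNAs were not measured in these tables, so the level of let-7 is not known here.

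Library totals lay between 20010818 and 22554835 counted reads. Levels are given as reads, as CPM (reads scaled to 1000000 counted reads), and as FPKM, which divides by transcript length and is used for comparing genes. With 3 reads taken as the floor, the smallest CPM counted as measurable was 0.133 to 0.150. Intervals are exact 95% intervals of the reads and cover counting error only. They do not hold the variation between cultures, so no difference between conditions has a replicate check. Foxa2, a transduced gene, had 68 reads in untransduced VM astrocytes, 15 in the library titled C and 216 in the library titled NF. Nr4a2, the gene of Nurr1, had 81, 53 and 183 reads in that order. Both were highest in the library titled NF, the order its title gives, and the virus entries give the other. Of the VM libraries, the one titled C held the fewest reads of both, below the untransduced culture. The Foxa2 virus carried the rat gene, and how far its reads were counted on the mouse transcript was not tested. Against the untransduced library, 0.322% of transcripts tested were higher by 2-fold in the library titled NF and 0.668% lower. In the library titled C, 7.30% were higher and 8.48% lower. Which of the labels holds was not tested. If the virus entries hold, each difference stated for the library titled C is that of the N + F cells.

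Each label was compared with cell type markers. The Ctx NPC library held the progenitor genes together with glial genes: Gfap, an astrocyte filament, at 2246 FPKM, and Mbp, a myelin protein, at 1485 FPKM. Its summed CPM was 10693 for 10 astrocyte markers, against 1593 to 4312 in the astrocyte libraries, and 7488 for 10 mature oligodendrocyte markers, against 218 to 418. Of 9 astrocyte markers with FPKM > 1 in Ctx NPCs or Ctx astrocytes, 3 were higher in Ctx NPCs by 2-fold and 1 was lower. The label of neural progenitor cells therefore describes a culture in which mature oligodendrocyte markers were high. Gfap was high there too, while most of the astrocyte markers did not exceed Ctx astrocytes by 2-fold. The astrocyte libraries held Gfap at 77.8 to 476 FPKM and Aqp4, the astrocyte water channel, at 31.4 to 106 FPKM. Aqp4 too was higher in Ctx NPCs, at 179 FPKM. In each astrocyte library 9 of 10 astrocyte markers had FPKM > 1, and Gjb6 was at 0 to 0.0699 FPKM. Summed mural and fibroblast markers exceeded summed astrocyte markers in each VM library: 4433 against 1897 CPM untransduced, 2722 against 1593 CPM titled C and 4295 against 1632 CPM titled NF. Ctx astrocytes had 2117 against 4312 CPM. In bulk RNA, fewer cells of a type and less RNA per cell cannot be told apart.

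Together the 10 genes took 0.307% of reads in Ctx NPCs, 0.144% in Ctx astrocytes, 0.170% in untransduced VM astrocytes, 0.283% in the library titled C and 0.160% in the library titled NF. The 2 highest shares were made of different genes. Fabp7 gave 47.8% of these reads in Ctx NPCs and Nes 21.8%, while in the library titled C Nes gave 69.0% and Fabp7 5.67%. The number of the 10 genes with FPKM > 1 was 9 in Ctx NPCs and in untransduced VM astrocytes, and 8 in each other library.

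**Figure D1:**
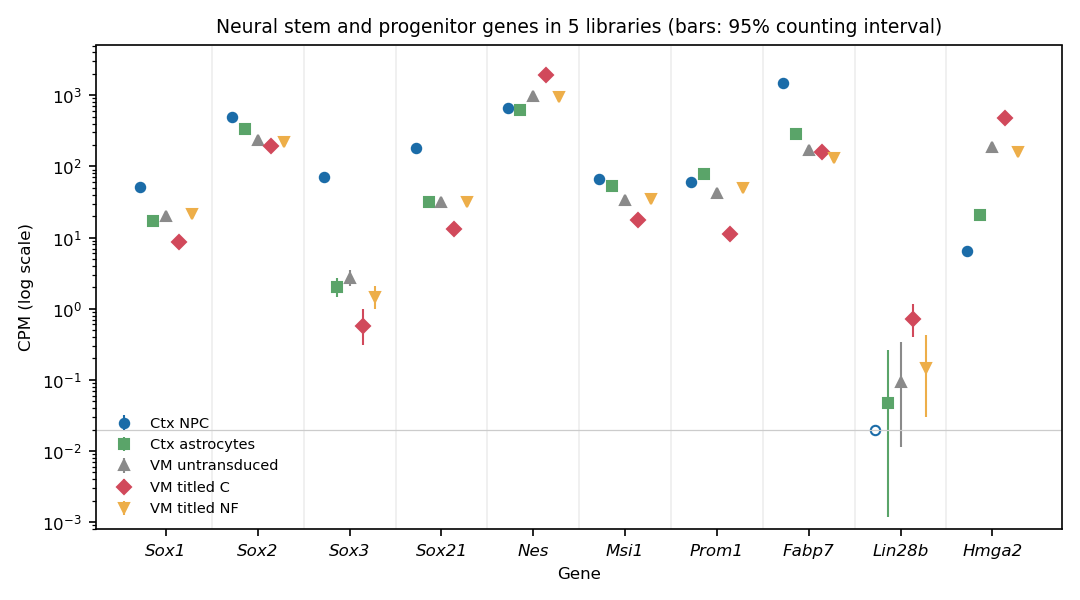
CPM on a log axis for each of the 10 genes (x axis), with 1 marker per library and bars for exact 95% counting intervals; the open marker on the grey line, placed at no measured value, stands for 0 reads of Lin28b in Ctx NPCs. Sox3, Sox21 and Fabp7 stand far higher in Ctx NPCs (72.0, 179 and 1466 CPM) than in the other libraries. Hmga2 and Nes are highest in the library titled C (472 and 1951 CPM).

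Among the SoxB genes, Sox2 was the most abundant in every library. Sox2 (chromosome 3, 34649995 to 34652461) had 9940 reads in Ctx NPCs, 7190 in Ctx astrocytes, 4958 in untransduced VM astrocytes, 4342 in the library titled C and 4481 in the library titled NF. The range was narrow, 201 to 78.0 FPKM, and with library totals all neighbours in this order differed beyond counting error. Its share of the reads of the 4 SoxB genes was 62.1% in Ctx NPCs and 80.2% to 89.6% in the astrocyte libraries. Of the 4 SoxB genes, Sox2 thus spanned the smallest range across libraries.

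Sox1 (chromosome 8, 12395519 to 12399555) had 1036 reads in Ctx NPCs, 364 in Ctx astrocytes, 422 in untransduced VM astrocytes, 196 in the library titled C and 432 in the library titled NF. Ctx NPCs were highest, at 12.8 FPKM, and the library titled C lowest, at 2.15 FPKM. The untransduced and NF libraries did not differ beyond counting error.

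Sox21 (chromosome 14, 118233233 to 118237030) followed the same order of extremes, with 3584, 680, 666, 297 and 647 reads in the same order of libraries. Ctx astrocytes, untransduced VM astrocytes and the library titled NF lay within counting error of each neighbour, at 31.3 to 31.8 CPM. The library titled C was below them at 13.2 CPM.

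Sox3 (chromosome X, 60891366 to 60893430) spanned the widest range of the 4, with 1440 reads in Ctx NPCs against 43 in Ctx astrocytes, 58 in untransduced VM astrocytes, 13 in the library titled C and 30 in the library titled NF. Its level was 34.8 FPKM in Ctx NPCs and 0.279 to 1.32 FPKM elsewhere. Neighbouring levels of untransduced VM astrocytes, Ctx astrocytes and the library titled NF did not differ beyond counting error. From Ctx NPCs to the library titled C the log2 ratio was 6.91 (6.19 to 7.88).

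Nes (chromosome 3, 87971093 to 87980451) had 13357 reads in Ctx NPCs, 13311 in Ctx astrocytes, 20845 in untransduced VM astrocytes, 44009 in the library titled C and 19324 in the library titled NF. The library titled C stood apart at 318 FPKM, against 101 to 160 FPKM in the others. Nes was thus no higher in Ctx NPCs than in VM astrocytes.

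Fabp7 (chromosome 10, 57784923 to 57788450) had 29342 reads in Ctx NPCs, 6083 in Ctx astrocytes, 3680 in untransduced VM astrocytes, 3618 in the library titled C and 2675 in the library titled NF. At 1914 FPKM it was the 6th most abundant transcript in Ctx NPCs, and at 370 FPKM the 97th in Ctx astrocytes. The VM libraries held 172 to 226 FPKM.

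Msi1 and Prom1 were both lowest in the library titled C. Msi1 (chromosome 5, 115359059 to 115455698) had 1349, 1132, 711, 397 and 705 reads, from 43.1 FPKM in Ctx NPCs to 11.2 FPKM in the library titled C. Prom1 (chromosome 5, 43993621 to 44102047) had 1218, 1678, 915, 254 and 1016 reads. Prom1 was highest in Ctx astrocytes, at 20.7 FPKM, and lowest in the library titled C, at 2.98 FPKM.

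Hmga2 (chromosome 10, 120361268 to 120476469) was lowest in Ctx NPCs and highest in the library titled C. It had 130 reads in Ctx NPCs, 451 in Ctx astrocytes, 3957 in untransduced VM astrocytes, 10654 in the library titled C and 3251 in the library titled NF. Levels were 1.55, 5.03, 44.4, 113 and 38.2 FPKM, and every neighbour in the order differed beyond counting error. Between the library titled C and Ctx NPCs the log2 ratio was 6.18 (5.93 to 6.44).

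Lin28b (chromosome 10, 45376617 to 45486314) was near or under the floor of 3 reads in most libraries. It had 0 reads in Ctx NPCs, which allows up to 0.150 CPM by the floor of 3 reads and 0.184 CPM by the exact Poisson bound, and 1, 2, 16 and 3 reads in the others. Only the 16 reads of the library titled C lay clearly above the floor, at 0.131 FPKM, and the gene did not pass FPKM > 1 anywhere. Its paralog Lin28a had 1 read in Ctx NPCs and 0 in the other 4 libraries. Neither Lin28 gene was therefore detectable above the floor in the labelled embryonic progenitors at this depth.

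Annotated transcripts overlap 6 of the 10 genes: Sox1ot and Sox2ot run over Sox1 and Sox2 on the same strand, and Sox21, Msi1, Prom1 and Hmga2 have neighbours on the opposite strand. Prom1 and Hmga2 are also overlapped on the same strand, by Gm42716 and Mir763. Strand use in the counting is not stated, so reads of such partners cannot be told apart from those of the gene.

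The first comparison set Ctx NPCs, labelled as embryonic neural progenitor cells, against Ctx astrocytes, labelled as postnatal astrocyte progenitor cells of the same region. Genes were tested where either library had FPKM > 1, and 2-fold was the limit for counting a gene as higher or lower. Of the 9 genes that passed the FPKM limit, 4 were higher in Ctx NPCs by 2-fold, where 20.1% of all 12623 transcripts tested were, and 1 was lower, where 17.9% of all were. Their median log2 ratio was 0.57, and that of all transcripts was 0.19. Sox3 was higher by 5.15 on the log2 scale (4.73 to 5.64), or 35.5-fold. It passed the FPKM limit only through Ctx NPCs, at 34.8 FPKM against 0.971 in Ctx astrocytes. An FPKM limit on both libraries leaves Sox3 out of the 4. Sox21 was higher by 2.50 (2.38 to 2.62), Fabp7 by 2.37 (2.33 to 2.41) and Sox1 by 1.61 (1.43 to 1.78). Among the rest, Sox2 differed by 0.57 (0.52 to 0.61), Msi1 by 0.35 (0.24 to 0.47) and Prom1 by -0.36 (-0.47 to -0.26). Hmga2 was lower in Ctx NPCs, at -1.69 (-1.99 to -1.41). Nes differed by 0.10 (0.07 to 0.14) with library totals and by -0.08 with edgeR's TMM normalization, so its direction depends on the scaling. TMM moved the median of all transcripts from 0.19 to 0.0063, and Nes lay below the median of all transcripts under both.

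Other progenitor genes were read from lists. Of 20 radial glia and neural stem cell genes tested, 6 were higher in Ctx NPCs by 2-fold and 5 lower, with a median log2 ratio of 0.31. Among the higher genes were Hes5, a Notch target, at 5.78 and Hopx, a marker of outer radial glia, at 3.88. The lowest were Dmrta2, a cortical patterning factor, at -1.59, Cdh2 (N-cadherin) at -1.44 and Tnc (tenascin C) at -1.34. For the other Sox genes, 7 of 9 tested were higher and 1 lower, with a median of 1.88. These included Sox10 of the oligodendrocyte lineage at 6.01, Sox8 at 2.74 and Sox11, a factor of newborn neurons, at 2.49, while Sox7 was at -2.02. Sox14 and Sox17 had 0 reads in all 5 libraries.

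The fetal program was split. Of 13 genes in the Lin28 and Hmga list, 12 were matched, and of the 9 tested 6 were higher in Ctx NPCs and 0 lower, with a median of 1.06. Hmga2 and Lin28b are not in this list. Mycn, a MYC family factor, was at 2.52, and the mRNA-binding proteins Igf2bp3 and Igf2bp1 at 2.44 and 2.01. Hmga2 thus differed in the opposite direction to these genes in the same libraries. Of 7 close relatives of the 10 genes tested, 1 was higher and 2 were lower: Ina, a neuronal intermediate filament, was at 4.52, and Synm (synemin) and Vim (vimentin), filament partners of nestin, were at -3.22 and -1.16.

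Markers of other cell types and of division moved with this comparison. Of 8 intermediate progenitor and newborn neuron genes tested 6 were higher and 1 lower, led by Dcx, a microtubule protein of newborn neurons, with 3831 reads against 2. Proliferation genes were higher in 9 of 10, with a median of 2.18. Of 9 astrocyte markers tested 3 were higher and 1 lower, with a median of 0.76. Mature oligodendrocyte markers were higher in 8 of 8 tested (median 6.76) and oligodendrocyte progenitor markers in 7 of 8 (median 3.11), Sox10 being in both this list and the Sox list. Microglial markers were lower in 7 of 7 tested, with Trem2 at 0 reads in Ctx NPCs, mural and fibroblast markers in 7 of 10, ependymal markers in 5 of 6 and endothelial markers in 2 of 2. The part of these cells in the SoxB, Fabp7 and Hmga2 values was not tested.

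**Figure D2:**
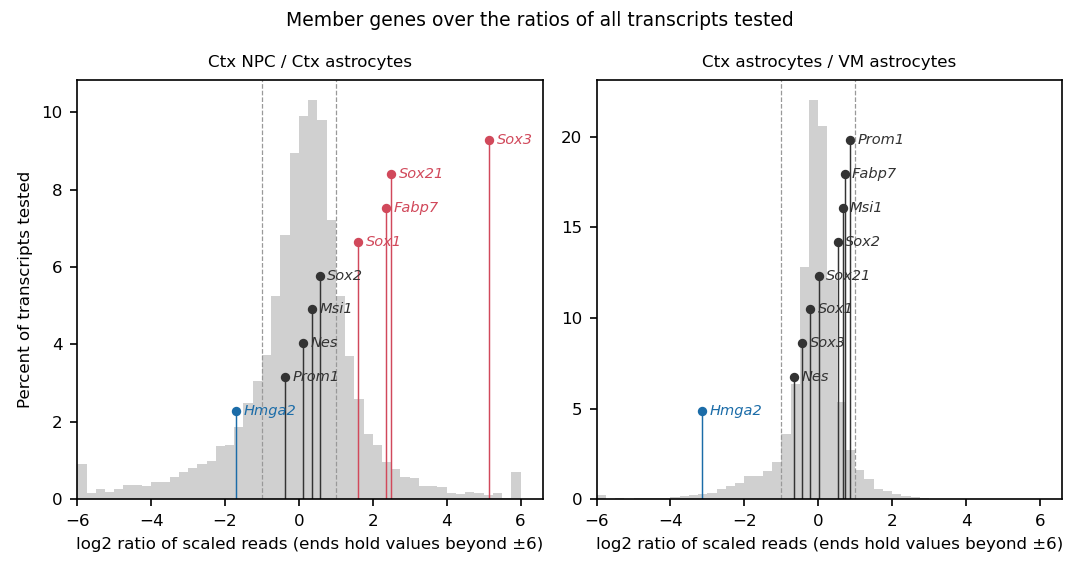
Share of all tested transcripts by log2 ratio (grey bars, in percent) for Ctx NPCs against Ctx astrocytes (left) and Ctx astrocytes against untransduced VM astrocytes (right), with each gene that passed FPKM > 1 marked at its own ratio; dashed lines are 2-fold, and the height of a marker has no meaning. Sox3 lies at 5.15 on the left, in the thin tail of all transcripts, and Hmga2 at -3.14 on the right, while the other 8 genes on the right lie inside 2-fold.

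The region of origin was compared between Ctx and untransduced VM astrocytes. Of the 9 genes tested, 0 were higher in Ctx astrocytes by 2-fold, where 4.49% of all 12553 transcripts were, and 1 was lower, where 9.89% of all were. That gene was Hmga2, with 451 reads in Ctx astrocytes and 3957 in VM astrocytes, 8.82-fold lower in Ctx at a log2 ratio of -3.14 (-3.29 to -3.00). Prom1 at 0.87 (0.75 to 0.98), Fabp7 at 0.72 (0.66 to 0.78), Msi1 at 0.66 (0.53 to 0.80) and Sox2 at 0.53 (0.47 to 0.58) were higher in Ctx astrocytes by less than 2-fold. Nes was at -0.66 (-0.69 to -0.62). Sox21 at 0.02 (-0.14 to 0.18) and Sox3 at -0.44 (-1.04 to 0.15) had intervals that included 0, and Sox1 was at -0.22 (-0.43 to -0.02). The median of the 9 was 0.02 and that of all transcripts was -0.05. TMM moved the latter to 0.01, so whether an interval ending near 0, as that of Sox1 does, includes 0 depends on the scaling.

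A further 3 genes of the fetal program were lower in Ctx astrocytes, as Hmga2 was: Igf2, a fetal growth factor, at -3.22, Igf2bp1 at -2.17 and Igf2bp2 at -1.05, among 9 tested with 0 higher and a median of -0.85. The radial glia list gave 7 higher and 3 lower of 19, with a median of 0.66. Its highest were the forebrain factors Dmrta2 at 4.81, Nr2e1 (Tlx) at 3.37 and Emx2 at 2.76, and its lowest were Tnc at -2.01, the Notch target Hes1 at -1.69 and Hopx at -1.14. All 10 proliferation genes were lower in Ctx astrocytes, with a median of -2.23, and so were 7 of 8 microglial markers. Summed mural and fibroblast markers were 2117 CPM in Ctx against 4433 CPM in VM astrocytes, and 6 of 9 astrocyte markers were higher in Ctx. Whether these cells or their division bear on the Hmga2 difference was not tested.

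The VM libraries were then compared with the untransduced culture, which serves as the reference for both the C and the NF library, so the values of these comparisons share its reads. In the library titled C, 4 of the 9 genes tested were lower than in the untransduced library by 2-fold, where 8.48% of all 12703 transcripts were, and 1 was higher, where 7.30% of all were. Sox3 was at -2.20 (-3.23 to -1.36) on 13 against 58 reads, Prom1 at -1.93 (-2.14 to -1.73), Sox21 at -1.25 (-1.45 to -1.05) and Sox1 at -1.19 (-1.44 to -0.94). Sox3 passed the FPKM limit only through the untransduced library, at 1.32 FPKM against 0.279 in the library titled C. An FPKM limit on both libraries leaves Sox3 out of the 4. Msi1 lay just inside 2-fold at -0.92 (-1.10 to -0.74). Sox2 at -0.27 (-0.33 to -0.21) and Fabp7 at -0.11 (-0.17 to -0.04) were close to the untransduced level. Hmga2 was higher, at 1.35 (1.29 to 1.40) or 2.54-fold. Nes was just under the limit at 1.99-fold, with a log2 interval of 0.97 to 1.02, and it passed 2-fold when TMM, DESeq2 or upper-quartile scaling was used. Lin28b, at 16 against 2 reads, had a log2 ratio of 2.65 with a wide interval (0.83 to 6.08) and did not pass the FPKM limit. The median of the 9 genes was -0.92 and that of all transcripts was -0.01.

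The 2-fold limit was thus passed downwards by Sox1, Sox3, Sox21 and Prom1 and upwards by Hmga2, with Msi1 and Nes just inside it and Sox2 and Fabp7 well inside it. Among 17 radial glia genes tested, with a median of -0.41, 0 were higher by 2-fold and 3 were lower: Nr2e1 at -3.53, with 21 reads against 235, Id4 (an inhibitor of bHLH factors) at -1.27 and Ednrb, an endothelin receptor, at -1.15. Hes5 had 0 to 3 reads in the VM libraries and was too low to compare. Of the 9 fetal program genes tested, Arid3a was higher at 1.04 and Plagl1, an imprinted zinc finger gene, lower at -2.45. The relatives gave Fabp3 at 1.33 and Synm at -1.37. No proliferation gene of 10 passed 2-fold, and their median was -0.04.

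Marker lists of other cells also differed in the library titled C. Microglial markers were higher in 8 of 9 tested, summing to 966 CPM against 282 CPM, led by Aif1 at 2.66, Csf1r at 2.52 and Trem2 at 2.22. Ependymal markers were lower in 6 of 7, with Foxj1, the master factor of motile cilia, at -2.51 on 1214 against 6527 reads, and Rarres2 was higher at 1.61. The ependymal sum was 83.1 CPM against 366 CPM, of which Foxj1 alone gave 53.8 and 306 CPM, and Prom1 was lower in the same library. Oligodendrocyte progenitor markers were higher in 5 of 8 tested, Sox10 among them at 2.38. Mature oligodendrocyte markers were higher in 6 of 8 and lower in 1, with a median of 2.00, and summed to 418 CPM against 270 CPM. Astrocyte markers summed to 1593 CPM against 1897 CPM and mural and fibroblast markers to 2722 CPM against 4433 CPM. Of 4 endothelial markers tested 2 were higher and 1 lower, and of 4 neuronal genes 2 were higher. The part of these cells in the SoxB, Prom1, Nes and Hmga2 values was not tested.

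**Figure D3:**
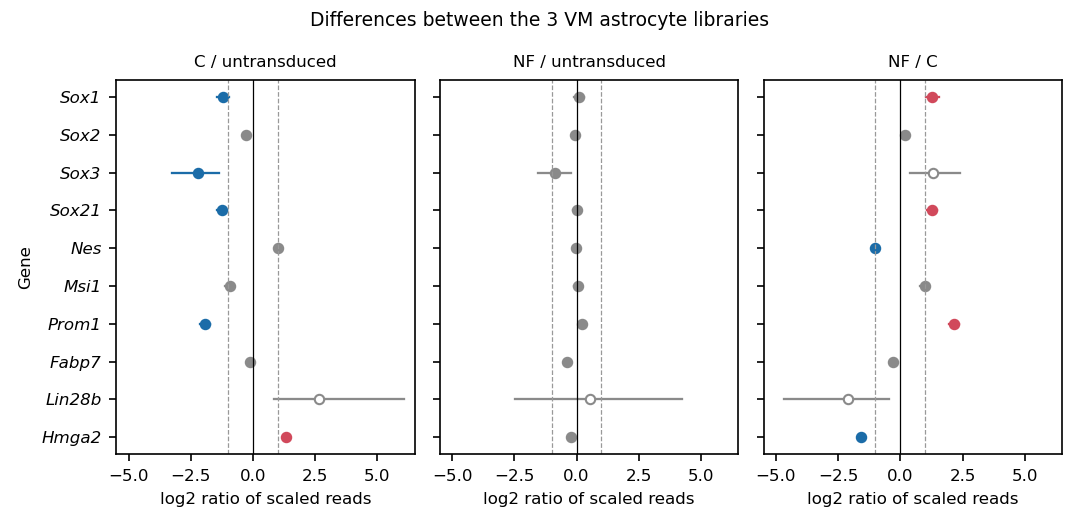
Log2 ratios of scaled reads (x axis) for each of the 10 genes (y axis) in the 3 comparisons among VM libraries, with exact 95% counting intervals as bars; red marks genes higher and blue genes lower by 2-fold, open circles are genes under FPKM 1 in both libraries, and dashed lines are 2-fold. Sox1, Sox3, Sox21 and Prom1 lie left of the lower line and Hmga2 right of the upper line in the first panel, and every gene above FPKM 1 lies within 2-fold in the second.

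In the library titled NF, 0 of the 9 genes tested were higher than in the untransduced library by 2-fold and 0 were lower, where 0.322% and 0.668% of all 12428 transcripts were. The largest difference was that of Sox3, at -0.87 (-1.57 to -0.22) on 30 against 58 reads. Fabp7 was at -0.39 (-0.47 to -0.32), Hmga2 at -0.22 (-0.28 to -0.15) and Prom1 at 0.22 (0.09 to 0.35). Intervals of Sox1 at 0.10 (-0.10 to 0.30), Sox21 at 0.02 (-0.13 to 0.18) and Msi1 at 0.05 (-0.10 to 0.21) included 0. Sox2 was at -0.08 (-0.14 to -0.02). TMM moved the median of all transcripts from -0.05 to -0.00019, so whether the Sox2 interval includes 0 depends on the scaling. Nes was at -0.04 (-0.07 to -0.01), and this turned to 0.01 under TMM. None of the radial glia, fetal program, Sox, relative or proliferation genes tested passed 2-fold. Of the marker lists, 3 of 6 mature oligodendrocyte markers and 1 of 8 microglial markers (Aif1, at -1.34) were lower.

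Set directly against the library titled C, the library titled NF was higher in 3 of the 8 genes tested, where 9.53% of all 12701 transcripts were higher by 2-fold, and lower in 2, where 9.73% were lower. Prom1 was higher by 2.15 (1.95 to 2.35), Sox1 by 1.29 (1.04 to 1.54) and Sox21 by 1.27 (1.07 to 1.48), and Msi1 was at 0.98 (0.80 to 1.16). Hmga2 was lower at -1.56 (-1.62 to -1.51) and Nes at -1.04 (-1.06 to -1.01). Sox2 at 0.19 (0.13 to 0.26) and Fabp7 at -0.29 (-0.36 to -0.21) differed little. Sox3, on 30 against 13 reads, was at 1.32 (0.37 to 2.42) and was under the FPKM limit in both. The reads of the library titled C are the same as in its comparison with the untransduced library, so they give no second measurement of its differences. Radial glia genes were higher in 4 of 18 tested and lower in 0, with a median of 0.28 (all transcripts -0.02) and with Nr2e1 at 3.62, Ednrb at 1.20 and Id4 at 1.07. In the same comparison 8 of 9 microglial markers were lower and 5 of 7 ependymal markers higher. Mature oligodendrocyte markers were lower in 6 of 8 tested and higher in 1, with a median of -3.37, and oligodendrocyte progenitor markers in 6 of 8, with a median of -1.59. The part of all these markers in the values of the 8 genes was not tested.

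**Figure D4:**
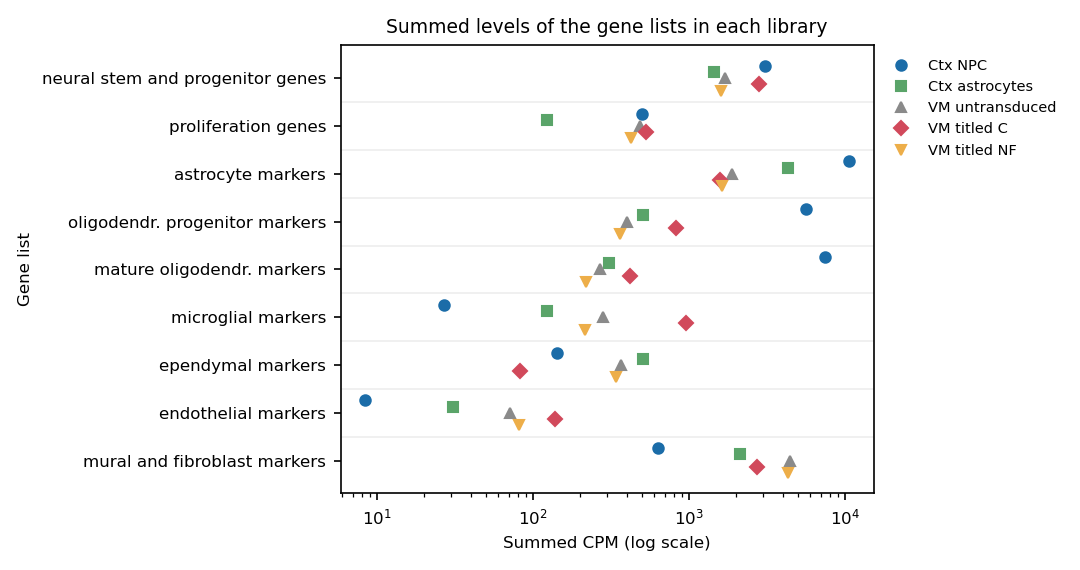
Summed CPM on a log axis for the 10 genes and for 8 fixed gene lists (y axis), with 1 marker per library. The library titled C is highest for the microglial list (966 CPM) and lowest for the ependymal list (83.1 CPM), and Ctx NPCs are highest for the oligodendrocyte and astrocyte lists.

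Genes with the most similar patterns were sought among 13298 transcripts with FPKM > 1 in at least 1 library, by the distance over the 5 libraries between log2(CPM + 0.5) values, each centred on its own mean. Nearest to Sox2 were Slc4a8 (distance 0.081), Dynll2 (0.14) and Muc1 (0.15). Nearest to Nes were Pkd2 (0.20), Reps2 (0.22) and Hcst (0.24), and to Fabp7 Sarm1 (0.26), Ppp2r2b (0.27) and Colgalt2 (0.28). Hcst was at only 0 to 1.15 CPM, so its distance leans on the 0.5 CPM added. Hmga2 was nearest to Tnfsf15 (0.16), followed by Grem1 (0.38) and Mmp13 (0.48). In Ctx NPCs these neighbours of Hmga2 were at 0.150 to 0.400 CPM, below the 0.5 CPM added. With 5 libraries these distances are descriptions only.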

How the data were processed

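RNA-seq was read from 5 libraries, 1 per condition. The deposited tables hold raw read counts per RefSeq transcript, which the authors made by trimming low-quality bases, aligning with STAR and counting exon reads with HTSeq-count. The authors also deposited FPKM, which recomputing from the counts returned within a relative difference of 4.09e-05. The study's methods name GRCm38/mm10 and the submitters' processing notes name mm9. Which was used for the counts is not settled, and the coordinates and sequences printed here are those of GRCm38. Strand use is not stated. Symbols came from RefSeq accessions for 19997 of 20178 transcripts, and H19 was not analysed here.

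Groups follow the titles. The 10 genes and the lists were chosen with earlier results of these data known. Named genes are all 10 members and a selection from at most the 3 highest and 3 lowest past 2-fold per list and comparison, list genes at 0 reads, and the 3 transcripts nearest in pattern to Sox2, Nes, Fabp7 and Hmga2. Foxj1, Aqp4, Foxa2 and Nr4a2 are outside that rule and were named after their values were seen. So were some fetal program genes named with their let-7 matches. Other genes under the rule are left out of the text. Counts were scaled to library totals with 0.5 reads added. Intervals are exact conditional binomial (Clopper-Pearson) for ratios and exact Poisson for levels, at 95%. They cover counting error only, and since PCR copies are not independent molecules they may be too narrow even for that. With 1 library per condition no test was run. Alternatives were edgeR TMM, DESeq2 size factors, upper-quartile scaling, 5 reads added, other FPKM limits and a 2.6-fold limit. The calculations were tested on simulated counts. Normalizations were run in R 4.3.3 (edgeR 4.0.16, DESeq2 1.42.0), and all else in Python 3.11.15 with scipy 1.17.1, numpy 2.4.6, matplotlib 3.10.9 and pandas 2.3.3.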

Additional observations from a re-analysis of the deposited data

How the results depend on the processing

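With 1 library per condition, no difference could be set against the spread between cultures, and no library could be left out. No paired analysis was possible because no condition has a replicate. Counts of the 10 genes past 2-fold, in 5 comparisons and both directions, were recomputed under 7 alternatives. For the library titled C against the untransduced one, the count of higher genes went from 1 to 2 with edgeR TMM, DESeq2 size factors or upper-quartile scaling, where Nes joined Hmga2, to 2 with no FPKM limit, where Lin28b joined, and to 0 at 2.6-fold. Its count of lower genes went from 4 to 2 at 2.6-fold, Sox3 and Prom1. For Ctx NPCs against Ctx astrocytes, the count of lower genes went from 1 to 2 with no FPKM limit, where Lin28b joined Hmga2. For the library titled NF against C, a 2.6-fold limit took the higher genes from 3 to 1, Prom1, and the lower genes from 2 to 1, Hmga2. The other counts stayed within 1.5 times of the main one, also where FPKM > 1 in both libraries left Sox3 out. Of 50 log2 ratios, 12 moved beyond their counting interval with TMM, 11 with DESeq2 size factors, 7 with upper-quartile scaling and 0 with 5 reads added, and no gene past 2-fold changed direction. Of 50 CPM levels, 15 moved beyond their interval with TMM library sizes. Lin28b, at 0 to 16 reads, and Sox3 in the VM libraries, at 13 to 58 reads, are limited most by depth.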
